A study of Mus musculus with 6 samples.

Results

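ExNeuron2 is 1 of 6 neuron classes that the authors annotated in a droplet experiment on nuclei of mouse brain. Its members are the 1098 nuclei carrying that annotation, 15.6% of the 7031 nuclei in the deposited table, and they make up 1 of the authors' own clusters. Below, ExNeuron2 is set against the other 5 ExNeuron classes (4482 nuclei) and against 5 non-neuronal classes (1404 nuclei: astrocytes, oligodendrocytes, oligodendrocyte precursors or OPC, microglia and endothelial cells). The 47 nuclei annotated as fibroblasts were in neither group.

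The study asked whether single nuclei can be profiled from formalin-fixed, paraffin-embedded (FFPE) tissue, in which fixation and storage break and modify RNA. All nuclei here came from C57BL/6J mice of 8 to 12 weeks, and from tissue that the labels call cortex, cut as 50 µm scrolls. The protocol names removal of paraffin by mineral oil or by xylene, without saying which of these the droplet nuclei received. Every nucleus comes from 1 droplet library, with no animal named per nucleus and 0 repeated barcodes, so there is no replicate and no test between classes. Intervals are exact 95% intervals of counting error only. The classes were made from these same genes, so the levels that set ExNeuron2 apart are a description of the class.

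Excitatory neurons load glutamate into synaptic vesicles with the transporters encoded by Slc17a7 or Slc17a6. They include the projection neurons of the cortex and the granule neurons of the cerebellum. The spiny projection neurons of the striatum release GABA instead, which Gad1 and Gad2 synthesise. They are known for dopamine signalling genes such as Ppp1r1b (DARPP-32, a phosphatase inhibitor controlled by protein kinase A) and for opioid peptide genes such as Penk.

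ExNeuron2 was the shallowest of the 6 neuron classes and had the largest mitochondrial share. Its nuclei held a median of 296 UMIs (unique molecular identifiers, each counting 1 captured RNA molecule; quartiles 270 and 340) from a median of 253 genes. Median UMIs of the other neuron classes ran from 321 in ExNeuron3 to 371 in ExNeuron4. Of the ExNeuron2 nuclei, 583 (53.1%) had at most 300 UMIs, against 33.5% of the other ExNeuron nuclei. The median mitochondrial fraction was 3.79% in ExNeuron2 and 3.18% to 3.41% in the others. Mitochondrial genes together took 36810 CPM (UMI counts of a gene or list, scaled to the same total in every class), the most of all 12 classes and close to the 36641 of oligodendrocytes, and all 12 mitochondrial genes with at least 100 CPM lay above the other ExNeuron classes, with a median ratio of 1.15. Summed over nuclei, ExNeuron2 held 345696 UMIs, the other ExNeuron classes 1734382 and the non-neuronal classes 505306. The part that depth and mitochondrial RNA play in the differences below was not tested.

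**Figure D1:**
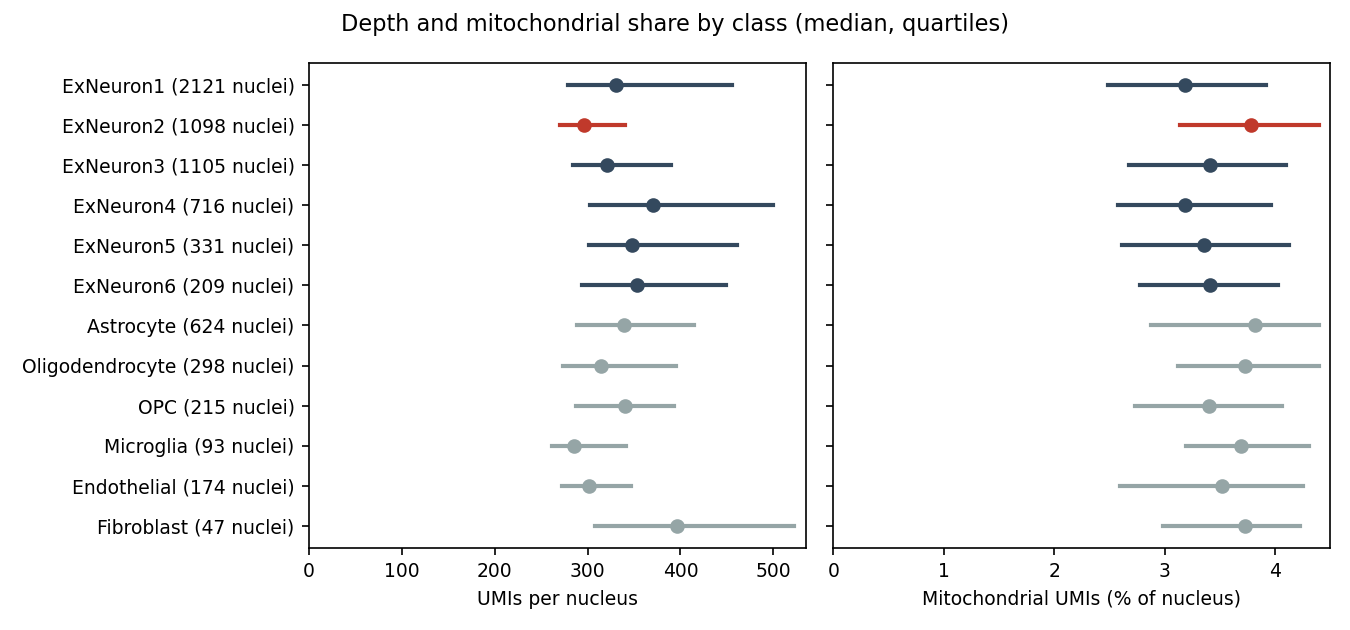
Median (point) and quartiles (line) of UMIs per nucleus (left) and of the mitochondrial percentage of UMIs (right) for each annotated class, with ExNeuron2 in red, other ExNeuron classes dark and the remaining classes grey. ExNeuron2 has the lowest median UMIs (296) and the highest median mitochondrial share (3.79%) of the 6 ExNeuron classes.

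The annotated name was checked first against markers of excitatory neurons. ExNeuron2 was a neuron class by pan-neuronal genes, whose 10 members summed to 16515 CPM (16089 to 16949), against 10647 to 12958 in the non-neuronal classes. The excitatory list did not set it apart: its 12 genes summed to 4458 CPM (4238 to 4686) in ExNeuron2, which is rank 4 of the 6 neuron classes and within the 3604 to 4574 CPM of the non-neuronal classes. ExNeuron1 held 6212 CPM of the same list. The 2 vesicular glutamate transporters together gave 549.6 CPM (474 to 634) in ExNeuron2, and 441 to 654 in non-neuronal classes. After each nucleus had been thinned to 200 UMIs, a Slc17a7 UMI was present in 10.1% of ExNeuron2 nuclei (8.39 to 12.1), in 10.3% of the other ExNeuron nuclei and in 7.72% (4.96 to 11.4) of oligodendrocytes, which should lack it. The unthinned shares were 14.4%, 19.4% and 12.4%, at median depths of 296, 334 and 314 UMIs. In all 5 non-neuronal classes the thinned share was 8.76% and the unthinned 14.5%. Nrgn and Camk2a, 2 abundant forebrain genes of calcium signalling, had ratios of 1.06 and 0.977 to the other ExNeuron classes. Against the 5 non-neuronal classes pooled, the excitatory list had a ratio of 1.13 (1.06 to 1.21), with 7 of 7 genes of at least 100 CPM above 1. ExNeuron3 (3802 CPM) and ExNeuron4 (3604 CPM) held less of this list than ExNeuron2, so the level is not particular to it. The list summed within the range of single non-neuronal classes, and the class is called ExNeuron2 here without a cell type.

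Markers of GABA neurons were at a middle level among the neuron classes. The genes of GABA synthesis and vesicle loading summed above the non-neuronal classes, while the wider inhibitory list did not. Gad1, Gad2 and Slc32a1 summed to 376 CPM (314 to 447) in ExNeuron2, above the 147 to 265 CPM of the non-neuronal classes and below ExNeuron6 (775 CPM) and ExNeuron4 (645 CPM) among the neuron classes. The ratio to the other ExNeuron classes was 1.30 (1.07 to 1.59). Gad2 was at 130.2 CPM in ExNeuron2, 44.7 in ExNeuron1, 71.8 in ExNeuron3 and 281 in ExNeuron4. The interval of the 3 genes together overlapped those of endothelial cells (148 to 437) and microglia (75.2 to 446). Endothelial cells held more Gad1 (212 CPM from 12 UMIs, against 193.8 in ExNeuron2) and microglia more Gad2 (136.5 CPM from 4 UMIs). The wider inhibitory list of 14 genes, which holds interneuron genes such as Erbb4, Adarb2 and Nxph1, summed to 2164 CPM in ExNeuron2 and to 6712 CPM in ExNeuron4, and its ratio to the other ExNeuron classes was 0.819 (0.757 to 0.885). It was below ExNeuron4 and ExNeuron6 (3913 CPM) and above the other 3, with a ratio of 1.41 (1.29 to 1.55) to ExNeuron1 and 1.15 (1.03 to 1.27) to ExNeuron3. The wider list lay within the 2150 to 4611 CPM of the non-neuronal classes, with a ratio of 0.848 (0.774 to 0.929) to them pooled.

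Markers of 4 other cell types lay within the range of the other ExNeuron classes. The astrocyte list summed to 2135 CPM in ExNeuron2, against 1544 to 2227 in the other ExNeuron classes and 7275 in astrocytes, a ratio of 1.14 (1.05 to 1.23) to the summed ExNeuron classes. The oligodendrocyte list gave 2329 CPM, against 1749 to 2486 and 15769 in oligodendrocytes. The microglial list gave 194 CPM (3789 in microglia) and the endothelial list 98.4 CPM (2756 in endothelial cells). Ttr, the product of choroid plexus, was found in every class, at 402 CPM in ExNeuron2 and 251 to 477 CPM in the other 11. Of these 4 cell type lists, 0 of the 12 astrocyte, 0 of the 12 oligodendrocyte, 1 of the 10 microglial and 2 of the 9 measured endothelial genes were at 0 UMIs in ExNeuron2. Their part in the levels of the neuronal genes was not tested.

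Of the 2255 genes with at least 100 CPM on either side (34.6 UMIs in ExNeuron2), 12 were at least 2-fold higher (0.532%) and 19 at least 2-fold lower (0.843%), and the median ratio over all of them was 1.011. The classes were made from these genes, so these counts are a description. The same count of higher genes was 21 for ExNeuron1, 61 for ExNeuron3, 82 for ExNeuron4, 44 for ExNeuron5 and 140 for ExNeuron6, classes that differ in summed depth. Its profile was most like ExNeuron1 (r = 0.952 on log2(CPM + 10)) and ExNeuron3 (r = 0.947), with ExNeuron4 at 0.928, ExNeuron5 at 0.901, astrocytes at 0.885 and ExNeuron6 at 0.867, and the remaining classes from 0.470 to 0.855. These correlations are across 9151 genes, which are not independent, within 1 library whose classes differ in summed depth. For 927 of the 2255 genes (41.1%), the ExNeuron2 level lay between those of ExNeuron1 and ExNeuron3. For ExNeuron4, ExNeuron5 and ExNeuron6 the same share was 33.0%, 29.7% and 25.5%. ExNeuron1 and ExNeuron3 were picked as the 2 classes most like ExNeuron2, which favours a higher share for it. The classes also differ in summed depth, so these shares do not show an intermediate profile.

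**Figure D2:**
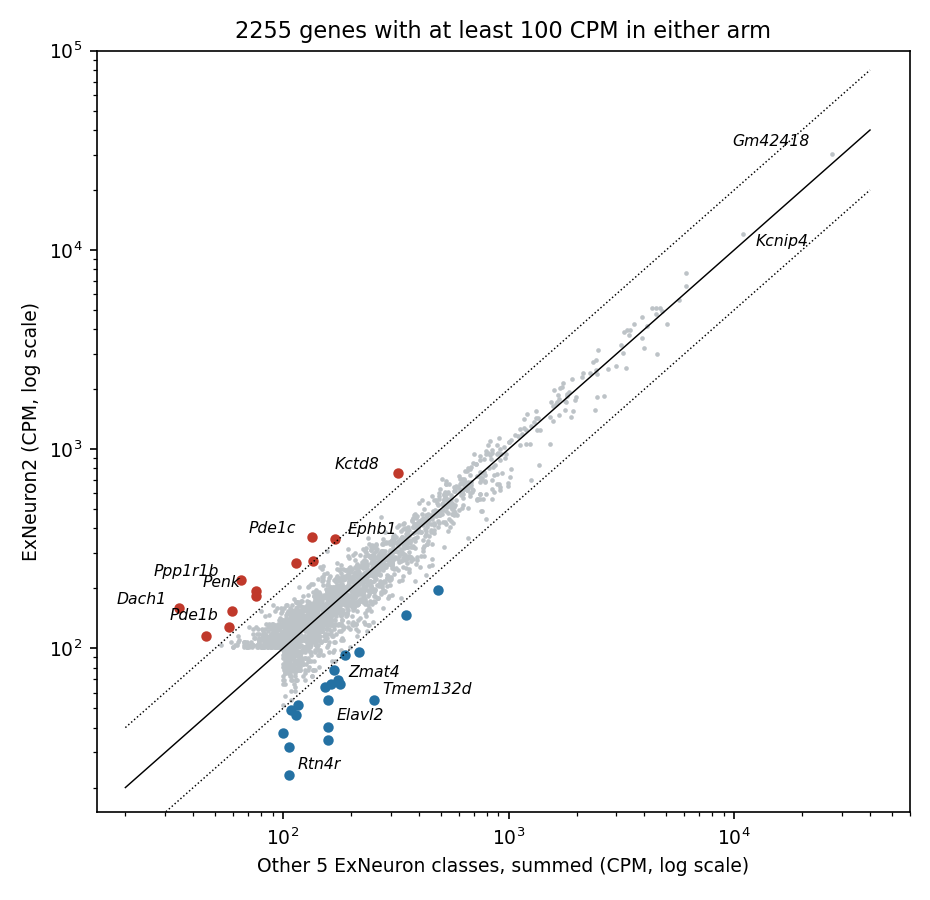
Each point is 1 of 2255 genes, with its CPM in the other 5 ExNeuron classes on the horizontal axis and in ExNeuron2 on the vertical axis, both on log scales; the solid line marks equal levels and the dotted lines a 2-fold difference. Red points are the 12 genes at least 2-fold higher in ExNeuron2 and blue points the 19 at least 2-fold lower, all of them among genes below 1000 CPM.

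Dach1, a transcriptional cofactor of the dachshund family, led the class. It gave 55 UMIs in ExNeuron2, or 159 CPM (119.9 to 207), and 26.6, 23.1, 69.4, 37.5 and 36.9 CPM in ExNeuron1, ExNeuron3, ExNeuron4, ExNeuron5 and ExNeuron6. The interval of ExNeuron2 overlapped that of none of the other 5 neuron classes, and the ratio to their sum was 4.60 (3.13 to 6.74). Outside the neurons Dach1 was as high in endothelial cells (159 CPM from 9 UMIs) and at 128 CPM in astrocytes, so it set ExNeuron2 apart from other neurons more than from the library as a whole. It lies at chr14:97786853-98169765 on the minus strand of GRCm38, as a protein-coding gene.

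3 of the next genes belong to the list of striatal spiny neurons. Ppp1r1b (chr11:98348404-98357796, plus strand) gave 76 UMIs, or 219.8 CPM (173 to 275), in ExNeuron2, and 77.3, 53.9, 29.8, 82.5 and 98.5 CPM in ExNeuron1, ExNeuron3, ExNeuron4, ExNeuron5 and ExNeuron6. Its ratio to the other ExNeuron classes was 3.37 (2.49 to 4.55), and to the non-neuronal classes 2.02 (1.41 to 2.91). Penk (chr4:4133531-4138819, minus strand), the precursor of enkephalin, gave 194 CPM (150.2 to 246) in ExNeuron2 and 56.5 to 105.8 CPM in the other neuron classes, a ratio of 2.55 (1.87 to 3.44). Pde1b (chr15:103503034-103530052, plus strand), a calmodulin-dependent phosphodiesterase that breaks down cyclic nucleotides, gave 153 CPM (115 to 200.5) in ExNeuron2 and 41.1 to 76.1 CPM elsewhere among the neurons, a ratio of 2.58 (1.82 to 3.63). All 3 had their highest CPM of the 12 classes in ExNeuron2, with intervals that overlapped those of some small classes. Among the 445 ExNeuron2 nuclei of the cluster that held most of them when all nuclei were clustered again, none of the 3 was past 2-fold: the ratio to the other ExNeuron classes was 1.54 (0.814 to 2.69) for Ppp1r1b, 1.81 (0.976 to 3.12) for Pde1b and 1.22 (0.634 to 2.16) for Penk.

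Among the 13 genes of the striatal list, 5 had at least 100 CPM on either side and all 5 lay above the other ExNeuron classes, with a median ratio of 2.55 beside 1.011 over all genes described. The 3 genes above were the ones past 2-fold, beside 0.532% of all genes described. Pde10a, a striatal phosphodiesterase that granule and other neurons also carry, was at 894 CPM in ExNeuron2 but at 1193 in ExNeuron3. Meis2, a homeobox gene of the developing and adult striatum and of other neurons, was at 191 CPM in ExNeuron2 and 1304 in ExNeuron6. All 13 genes summed to 1955 CPM (1811 to 2109) in ExNeuron2, below ExNeuron6 (2191 CPM) and above the other 10 classes, a ratio of 1.49 (1.36 to 1.62) to the other ExNeuron classes. Without Pde10a and Meis2, left out after their values were seen, the list summed to 870.7 CPM (775 to 975) in ExNeuron2, the highest of the 12 classes. That rank rests on the choice of the genes left out. Of the 301 UMIs, Ppp1r1b gave 76, Penk 67 and Pde1b 53. The values of this shorter list, here and below, thus rest largely on the 3 genes already named for their high ratios. Its interval overlapped those of microglia (312 to 887) and fibroblasts (313 to 1058). The other neuron classes held 293 to 397 CPM, the non-neuronal ones 340 to 546, and the ratio to the other ExNeuron classes was 2.44 (2.12 to 2.81).

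Of the 13 members, 6 had their highest level among the 6 neuron classes in ExNeuron2, and the dopamine receptors were near 0. Rgs9, a regulator of dopamine receptor signalling, gave 63.6 CPM in ExNeuron2 and 12.3 to 36.4 in the other neuron classes. Adcy5, the main adenylyl cyclase of the striatum, gave 95.5 CPM against 22.5 to 62.8. The rarer members did not lie this way. Tac1, the precursor of substance P, was at 23.1 CPM in ExNeuron2 and 24.6 in ExNeuron6, and Rarb, a retinoic acid receptor, at 26.0 CPM and 52.9 in ExNeuron4. Drd1 had 5 UMIs in 1098 nuclei (14.5 CPM, no higher than in ExNeuron5), Adora2a had 2 and Drd2 had 0. A count of 0 of 1098 nuclei allows Drd2 UMIs in up to 0.273% of them if 3 counts are taken as the limit, and in up to 0.335% by the exact binomial interval. Drd2 also had 0 UMIs in 9 of the other 11 classes.

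**Figure D3:**
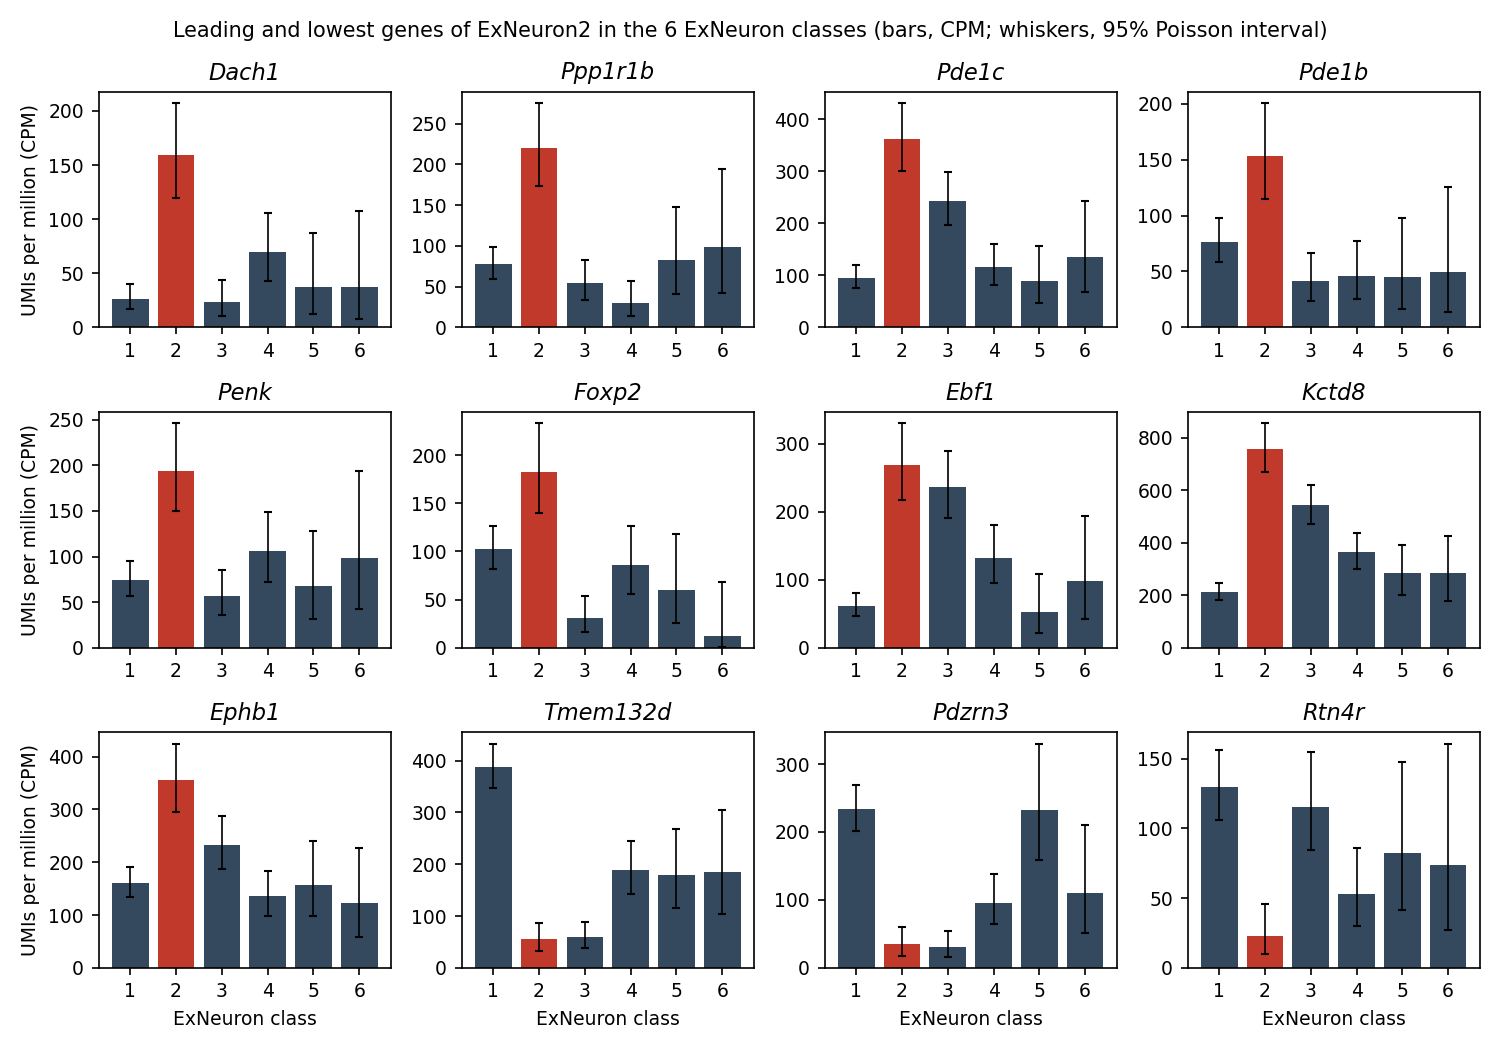
CPM of 12 genes in the 6 ExNeuron classes (horizontal axis, class number), with 95% Poisson intervals as whiskers and ExNeuron2 in red. The first 9 panels show genes among the 12 that were at least 2-fold higher in ExNeuron2, the last 3 show the 3 lowest ratios, and ExNeuron3 stands second for Pde1c, Ebf1, Kctd8 and Ephb1.

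A different set of leading genes was shared with ExNeuron3. Pde1c (chr6:56069804-56569103, minus strand), a second calmodulin-dependent phosphodiesterase, gave 362 CPM (301 to 431) in ExNeuron2, 244 in ExNeuron3 and at most 135 in the other 4 neuron classes. Kctd8 (chr5:69109285-69341679, minus strand), an auxiliary subunit of GABA-B receptors, gave 758 CPM (669 to 855) in ExNeuron2, 544 in ExNeuron3 and 211 to 364 in the others. Ebf1 (chr11:44617317-45008091, plus strand), a transcription factor of early neuronal differentiation, gave 269 CPM (217 to 330) in ExNeuron2 and 236 (ratio 1.14, 0.845 to 1.54) in ExNeuron3, so those 2 classes did not differ beyond counting error, and 52.5 to 132 in the others. Outside the neurons, Ebf1 reached 671 CPM (475 to 922) in endothelial cells. Ephb1, a receptor for ephrin-B ligands, gave 356 CPM against 233 in ExNeuron3 and 123 to 161 in the others. The long noncoding transcript 6530403H02Rik was the one gene of the 12 that another neuron class held at a higher level, at 275 CPM in ExNeuron2 and 328 in ExNeuron3.

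Foxp2 (chr6:14901349-15441977, plus strand), a forkhead transcription factor of deep cortical layers, striatum and thalamus, was shared with ExNeuron1 more than with ExNeuron3. It gave 182 CPM (140.0 to 233) in ExNeuron2, 103 in ExNeuron1, 30.8 in ExNeuron3 and 12.3 to 86.0 in the remaining neuron classes, while the 47 fibroblast nuclei held 707 CPM (386 to 1186). Tbc1d8, a GTPase-activating protein of the TBC family, gave 116 CPM in ExNeuron2 and 19.8 to 73.8 in the others, and Mpp7, a membrane-associated guanylate kinase, 127 CPM and 39.9 to 97.5. Just inside the 2-fold limit lay Ephb1 at 2.09 and 6530403H02Rik at 2.02. Just outside it lay Elmo1 (an engulfment and motility adaptor) at 1.98, Gucy1a3 (a subunit of soluble guanylate cyclase) at 1.96 and Pbx3 (a homeobox cofactor) at 1.91, which was at 153 CPM in ExNeuron2 and 603 CPM (446 to 797) in ExNeuron6. With the other 5 classes weighted equally, the ratio of Pbx3 was 0.887.

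The genes lower in ExNeuron2 were largely genes of ExNeuron1, ExNeuron4, ExNeuron5 or ExNeuron6. Tmem132d, a transmembrane protein gene, had 19 UMIs (55.0 CPM, 33.1 to 85.8), against 388 CPM in ExNeuron1, 59.0 in ExNeuron3 and 180.0 to 188 in the other 3, a ratio of 0.217 (0.129 to 0.342). Pdzrn3, a ubiquitin ligase with PDZ domains, had 34.7 CPM against 233 in ExNeuron1 and 30.8 in ExNeuron3, a ratio of 0.220 (0.112 to 0.390) to the summed classes. Elavl2, a neuronal RNA-binding protein, had 40.5 CPM against 357 in ExNeuron4, and Cpne4, a calcium-dependent membrane-binding protein, 31.8 CPM against 689 in ExNeuron6. Of these, ExNeuron3 was as low as ExNeuron2 for Tmem132d (ratio 0.931, 0.480 to 1.79) and Pdzrn3 (1.13, 0.463 to 2.74).

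Rtn4r was low in ExNeuron2 relative to both of its nearest classes. Rtn4r, the Nogo receptor that limits axon growth, gave 8 UMIs (23.1 CPM, 9.99 to 45.6) in ExNeuron2, 129 CPM in ExNeuron1, 115 in ExNeuron3 and 52.9 to 82.5 in the other 3. The ratio was 0.179 (0.0753 to 0.366) to ExNeuron1 and 0.200 (0.0816 to 0.430) to ExNeuron3. Stx1a, a SNARE protein of vesicle release, gave 69.4 CPM in ExNeuron2, 240.5 in ExNeuron1, 126 in ExNeuron3 and 60.0 in ExNeuron5, a ratio of 0.396 (0.250 to 0.601) to the summed classes and 0.552 (0.324 to 0.917) to ExNeuron3. The remaining named genes at the low end were Tshz2 (0.348), Zmat4 (0.373), Mlip (0.375) and Syt13 (0.403). Tshz2 rests on ExNeuron5 (1267 CPM), and with nuclei of at most 300 UMIs on both sides its ratio was 1.15 (0.530 to 2.34).

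Against ExNeuron1 alone, ExNeuron2 had 34 of 2286 genes at least 2-fold higher (1.49%) and 60 at least 2-fold lower (2.62%). The highest ratios were those of Dach1 (5.99), Pbx3 (4.53, 153 against 33.8 CPM), Ebf1 (4.37), Pde1c (3.79) and Kctd8 (3.58). The lowest were Tmem132d (0.142), Hs3st2 (0.144, a heparan sulfate sulfotransferase with 5 UMIs in ExNeuron2), Pdzrn3 (0.149), Rtn4r (0.179) and Mlip (0.247). Against ExNeuron3 alone, 42 of 2301 genes were at least 2-fold higher (1.83%) and 32 at least 2-fold lower (1.39%). Dach1 (6.89), Foxp2 (5.92), Ppp1r1b (4.08), Pde1b (3.74) and Penk (3.43) led there, and Rtn4r (0.200), Tanc1 (0.256), Ipcef1 (0.347), Cdon (0.347) and 5031425E22Rik (0.359) were lowest. Dach1 led against both of the most alike classes. Ppp1r1b (2.84), Penk (2.63) and Pde1b (2.01) were past 2-fold against ExNeuron1 as well, while Pde1c (1.48), Kctd8 (1.39) and Ebf1 (1.14) were not past 2-fold against ExNeuron3.

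Granule neuron genes were second to ExNeuron3. The 13 measured genes of the cerebellar granule list summed to 4032 CPM (3824 to 4250) in ExNeuron2, below ExNeuron3 (5483) and above all other 10 classes, and 9 of the 12 with at least 100 CPM lay above the other ExNeuron classes (median ratio 1.23, beside 1.011 over all genes). None of them was past 2-fold. Gabra6, the granule cell subunit of GABA-A receptors, was at 301 CPM in ExNeuron2, 364 in ExNeuron3 and 175 in ExNeuron1. Chn2, a Rac GTPase-activating protein, was at 1099 CPM in ExNeuron2, 1429 in ExNeuron3 and 638 in ExNeuron1, and Fat2, a granule cell cadherin, at 231, 372 and 128. Gabra6 UMIs were also found in 5.37% of thinned oligodendrocyte nuclei (3.10 to 8.57) and in 5.46% of thinned ExNeuron2 nuclei (4.196 to 6.978), and in 3.13% (2.29 to 4.18) of thinned nuclei of all 5 non-neuronal classes. The unthinned shares were 7.38%, 9.20% and 5.48%. The ExNeuron2 share thus exceeded that of the pooled non-neuronal nuclei and not that of oligodendrocytes.

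Cortical layer genes, which fit the labelled tissue, were at a middle level among the neuron classes and within or near the level of non-neuronal classes. The upper-layer list summed to 914 CPM (816 to 1021), a ratio of 0.869 (0.769 to 0.980) to the other ExNeuron classes. The non-neuronal classes held 683 to 1393 CPM of it, and the ratio to them pooled was 0.813 (0.706 to 0.935). Of its 5 genes with at least 100 CPM, 1 lay above them and Rorb, a nuclear receptor of layer 4, was past 2-fold lower (95.5 CPM against 298 in ExNeuron1). The deep-layer list summed to 1076 CPM (969.5 to 1191), against 2752 in ExNeuron5, 1150 in ExNeuron1 and 661 to 972 in the other 3, with Foxp2 past 2-fold higher and Tshz2 past 2-fold lower among 4 genes. Over all 2255 genes, 0.532% were past 2-fold higher and 0.843% lower. The non-neuronal classes held 836 to 990 CPM of the deep-layer list, a pooled ratio of 1.21 (1.06 to 1.40), and fibroblasts 1615 CPM.

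**Figure D4:**
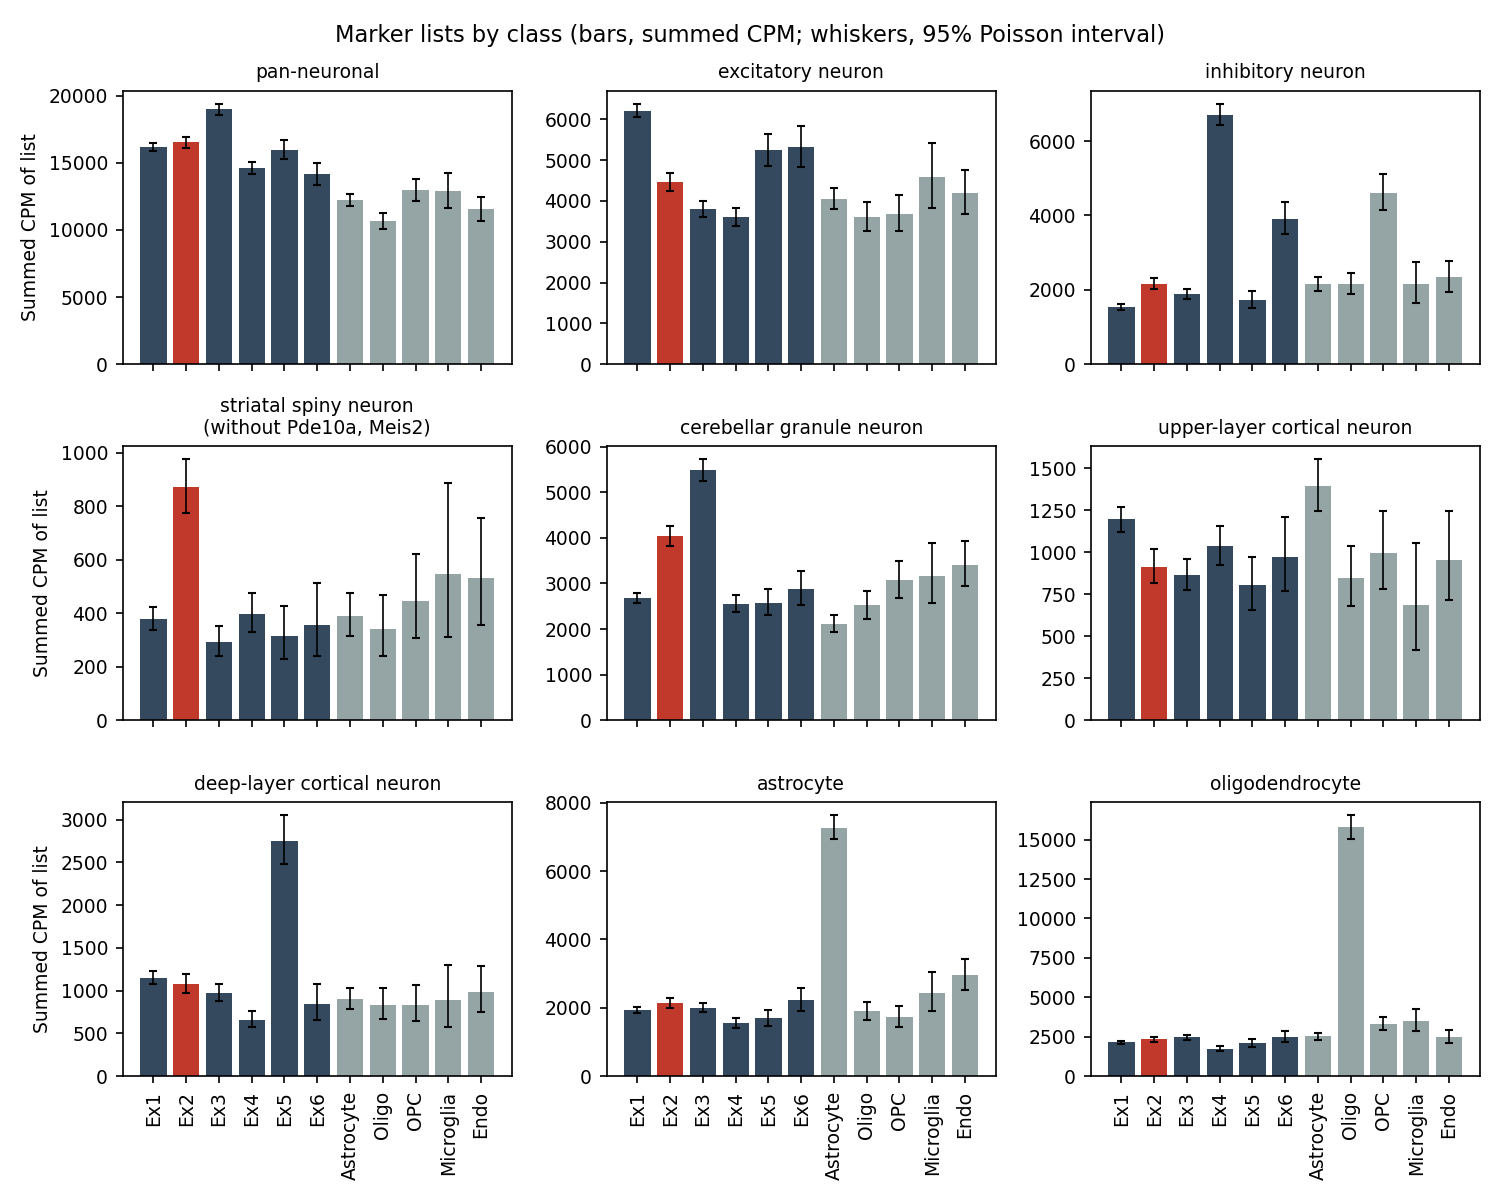
Summed CPM of 9 marker lists in 11 classes, with 95% Poisson intervals as whiskers and ExNeuron2 in red; the fibroblast class (47 nuclei) is not drawn. ExNeuron2 exceeds every other class for the striatal list without Pde10a and Meis2 (870.7 CPM), but not over all 13 genes (1955 against 2191 CPM in ExNeuron6), stands second to ExNeuron3 for the granule list (4032 against 5483 CPM), and lies within the range of non-neuronal classes for the excitatory list (4458 CPM).

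Among the listed genes of the synapse and of excitability, 4 were past 2-fold lower than in the other neuron classes and 0 past 2-fold higher. Over all 2255 genes described, 0.843% were lower and 0.532% higher. At 0.532% lists of this size would hold few or no higher genes, so the 0 is no result about them. The 22 genes of voltage-gated potassium channels and partners summed to 26587 CPM, led by Kcnip4 (12042 CPM, an auxiliary subunit of Kv4 channels) and Kcnd2 (7692 CPM, the Kv4 channel Kv4.2). Both stood between ExNeuron1 (10272 and 5087 CPM) and ExNeuron3 (15579 and 9996 CPM). Of the 20 with at least 100 CPM, 6 lay above the other ExNeuron classes, the median ratio was 0.813, and Kcnip1 alone was past 2-fold (0.451). The metabotropic glutamate receptors had a median ratio of 0.732 over 6 genes, with Grm3 at 0.544. Of the postsynaptic scaffold genes, Dlgap2 (0.406) and Grip1 (0.421) were past 2-fold lower among 14, beside 0.843% of all genes described. Of the GABA-A receptor genes, Gabrd, the extrasynaptic subunit, was at 159 CPM against 79.8 in ExNeuron1 and 169 in ExNeuron3. No member was past 2-fold in the lists of ionotropic glutamate receptors, sodium and calcium channels, neurexins, contactins and teneurins, cadherins, axon guidance or CaM kinases. Their genes with at least 100 CPM numbered 4 NMDA and 8 AMPA or kainate receptor genes, 9 sodium and 9 calcium channel genes and 10 of the neurexin list. A further 23 were contactins and teneurins, 11 cadherins, 17 axon guidance and 11 CaM kinase genes. Elavl2 and Stx1a stand in the lists of RNA-binding regulators (11 genes) and of presynaptic release (22 genes).

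Ribosomal protein genes lay the same way as the mitochondrial ones. Of the 19 with at least 100 CPM, 18 lay above the other ExNeuron classes, with a median ratio of 1.20, and all 104 together gave 5768 CPM, a ratio of 1.11 (1.06 to 1.16). Nuclear long noncoding RNAs lay the other way: all 6 with at least 100 CPM were below the other ExNeuron classes, from Malat1 (5638 CPM, ratio 0.987) to Meg3 (0.811) and Pantr1 (0.627), with a median ratio of 0.785. Their part in the other differences was not tested. Among the genes with most UMIs in ExNeuron2 were Gm42418 (30183 CPM), Kcnip4, Kcnd2, Dlgap1 (6619), Malat1, Dgkb (5132), mt-Co3, mt-Atp6 and Fgf14 (4753). UMIs are not scaled for gene length, so these values do not rank the transcripts.

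Against the non-neuronal classes, 60 of 2412 genes were at least 2-fold higher in ExNeuron2 (2.49%) and 167 at least 2-fold lower (6.92%), with a median ratio of 1.02. The highest ratios belonged to 6530403H02Rik (3.75, 2.54 to 5.65), Tbc1d8 (3.65), Kctd8 (3.30, 2.64 to 4.14), Pde1c (3.26), Ptchd1 and Vat1l (both 3.18), Pde1b (3.10), Pld5 (3.08), Zfyve28 (2.80) and Gabrd (2.77). Kcnip4 (2.02) and Kcnd2 (2.11) were the 2 abundant channel genes past 2-fold, and Rbfox1, a neuronal splicing factor, reached 1.89. General neuron genes differed less: Snap25, a vesicle fusion protein, was at 2491 CPM in ExNeuron2 and 2032 in the non-neuronal classes, and the 10 pan-neuronal genes had a median ratio of 1.34.

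Mertk, Plekhg1, Nhsl1, Plce1 and Nckap5 had the lowest ratios to the non-neuronal classes. Of the 5 non-neuronal classes, the first 4 were highest in astrocytes (265 to 453 CPM) and Nckap5 in OPC (640.1 CPM). Mertk, a phagocytic receptor of astrocytes and microglia, had 5 UMIs in ExNeuron2 (14.5 CPM) against 243 CPM, a ratio of 0.0594 (0.0190 to 0.143). Plekhg1 had 1 UMI against 184 CPM (interval of the ratio 0.000394 to 0.0898), Nhsl1 had 2 against 168 CPM, Plce1 3 against 156 CPM and Nckap5 6 against 352 CPM. Of the 8 astrocyte genes with at least 100 CPM, 6 were past 2-fold lower in ExNeuron2, beside 6.92% of all 2412 genes, among them Slc1a3 (0.239), the glial glutamate transporter, and Prex2 (0.180). Of the 11 oligodendrocyte genes, 8 were, beside the same 6.92%, among them the myelin gene Mog (0.249).

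Single nuclei carried few of the leading genes. At 200 UMIs per nucleus, Ppp1r1b was seen in 5.19% of ExNeuron2 nuclei (3.96 to 6.67), 1.41% of other ExNeuron nuclei and 0.671% of oligodendrocytes (0.0814 to 2.40), and unthinned in 6.56%, 2.41% and 2.68%. Kctd8 was seen in 14.3% (12.3 to 16.5), 6.18% and 3.69% (1.86 to 6.51), and unthinned in 19.9%, 10.95% and 8.39%. Dach1 was seen in 3.01%, 0.759% and 0.336%, and unthinned in 4.64%, 1.25% and 0.671%. In the 5 non-neuronal classes pooled, the thinned shares were 2.42% (1.68 to 3.37) for Ppp1r1b, 4.13% (3.15 to 5.31) for Kctd8 and 1.71% (1.10 to 2.53) for Dach1, and the unthinned ones 3.70%, 7.55% and 2.92%. The thinned Dach1 interval of ExNeuron2 (2.078 to 4.195) overlapped the pooled non-neuronal one, while those of Ppp1r1b and Kctd8 did not.

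At least 1 UMI of the striatal list without Pde10a and Meis2 was present in 182 of the 1098 thinned ExNeuron2 nuclei (16.6%, 14.4 to 18.9), against 7.03% of the other ExNeuron nuclei, 6.38% (3.88 to 9.78) of oligodendrocytes and 8.76% (7.33 to 10.4) of all 5 non-neuronal classes. Unthinned, the shares were 23.1%, 12.6%, 10.4% and 13.9%. With all 13 genes the thinned shares were 31.8%, 22.7%, 14.4% and 18.6% in the same order, and the unthinned ones 43.6%, 37.4%, 28.5% and 30.7%, with ExNeuron3 at 40.9%. Only 1.64% of ExNeuron2 nuclei had 2 or more such UMIs, and 83.4% had 0. A granule list UMI was present in 575 thinned nuclei. Of the nuclei with a striatal UMI 50.5% also had a granule UMI, and of those without one 52.7% did.

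Genes of the striatal trio and genes shared with ExNeuron3 were also counted in the same nuclei. At 200 UMIs, 125 ExNeuron2 nuclei had a UMI of Ppp1r1b, Pde1b or Penk, 264 had a UMI of Pde1c, Kctd8 or Ebf1, and 16 had both. The second set was found in 12.8% of nuclei with the first and in 25.5% of nuclei without it. With all UMIs, 43 nuclei had both and the values were 24.3% and 35.3%. The same order was found with all UMIs in ExNeuron1 (10% and 12.9%), ExNeuron3 (18.6% and 29.3%), ExNeuron4 (13.7% and 20.9%) and ExNeuron5 (4% and 15.03%), so it is not particular to ExNeuron2. With all UMIs it was the other way in ExNeuron6 (31.6% and 13.7%), in oligodendrocytes (27.8% and 17.9%) and in the pooled non-neuronal classes (15.6% and 14.8%). Those first values rest on 6 of 19, 5 of 18 and 17 of 109 nuclei. At 200 UMIs ExNeuron6 kept this order (20% and 9.55%, 2 nuclei with both). Oligodendrocytes were then near level (10% and 9.72%, 1 nucleus with both), and the pooled non-neuronal classes had the order of ExNeuron2 (6.58% and 8.89%). The sets were chosen after the levels had been seen, and most nuclei had neither.

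The nuclei of ExNeuron2 fell into several clusters when all 7031 nuclei were clustered again, as did those of other neuron classes. Of the 11 clusters obtained, cluster 0 held most ExNeuron2 nuclei, 445 of them (40.5%, 37.6 to 43.5), cluster 2 held 273 (24.9%) and cluster 1 held 191 (17.4%). In cluster 0 ExNeuron2 made up 20.98% of the nuclei, behind ExNeuron3 with 32.7%. ExNeuron1 made up 67.4% of its main cluster, ExNeuron4 60.9%, ExNeuron6 73.6% and ExNeuron5 11.1%. The main cluster of ExNeuron1 held 31.2% of its nuclei, that of ExNeuron5 32.9% and that of ExNeuron6 30.6%, each less than the 40.5% of ExNeuron2, while ExNeuron3 (62.8%) and ExNeuron4 (43.3%) were above it. In none of the 11 clusters did ExNeuron2 reach more than 20.98% of the nuclei, and its share of clusters 0, 1, 2 and 3 was alike (18.9% to 20.98%).

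**Figure D5:**
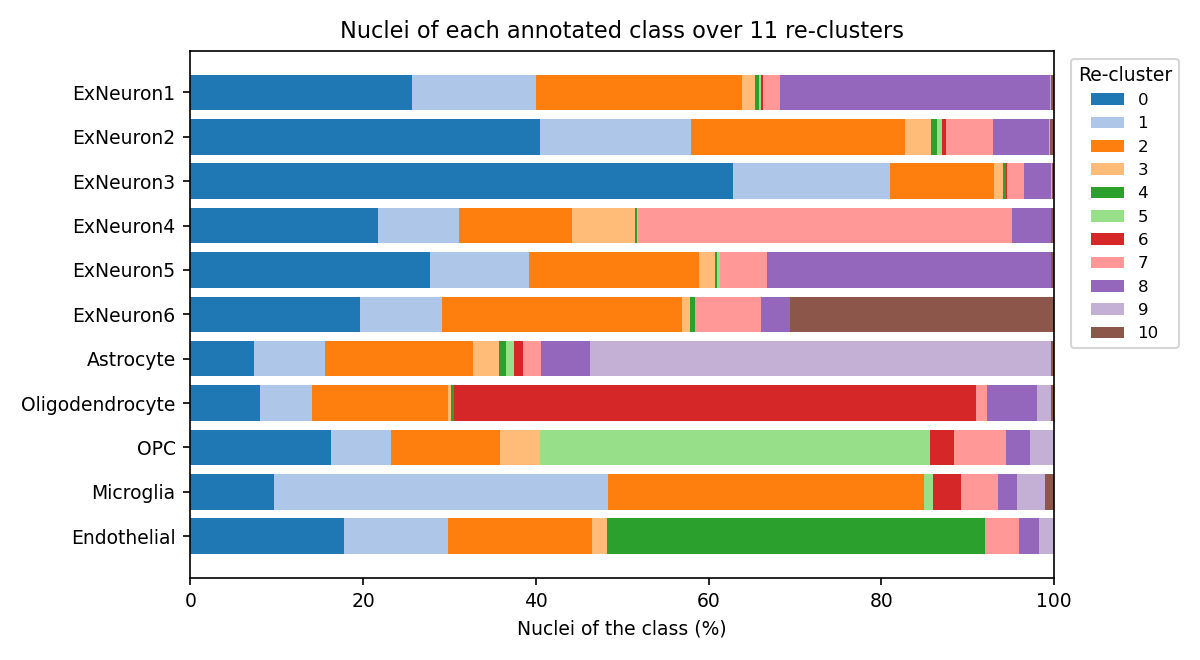
Percent of the nuclei of each annotated class (rows) in each of 11 clusters made again from all nuclei (colours, numbered 0 to 10). ExNeuron2 is spread mainly over clusters 0 (40.5%), 2 (24.9%) and 1 (17.4%).

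The ExNeuron2 nuclei of some clusters differed in the leading genes they carried, and those of cluster 1 held both sets. Those in cluster 0 held 84 of the 125 Pde1c UMIs (601 CPM, 479 to 744) and a granule list at 5650 CPM (5263 to 6058), while the striatal list without Pde10a and Meis2 was at 501 CPM (390.3 to 632.5). Those in cluster 2 had Pde1c at 100.3 CPM (43.3 to 198), the granule list at 2759 CPM (2406 to 3148) and the striatal list at 1216 CPM (986 to 1484), with Ppp1r1b at 376 CPM (254 to 537). The 191 nuclei in cluster 1 had the granule list at 4343 CPM (3818 to 4920), Pde1c at 387 CPM, the striatal list at 879 CPM (652.5 to 1159) and Ppp1r1b at 281 CPM. The 60 nuclei in cluster 7, where ExNeuron4 is the largest class, had Foxp2 at 927 CPM (581 to 1404), the inhibitory list at 3666 CPM (2936 to 4522) and the striatal list at 1348 CPM (922 to 1904). The 71 nuclei in cluster 8, where ExNeuron1 is the largest class, had Tmem132d at 422 CPM (211 to 755), 11 of its 19 UMIs in ExNeuron2, the excitatory list at 6369 CPM (5437 to 7415) and the striatal list at 1305 CPM (903 to 1823). Over all 13 striatal genes the levels were 1695, 1723, 2081, 2697 and 2686 CPM in the nuclei of clusters 0, 1, 2, 7 and 8, so the contrast of clusters 0 and 2 is smaller with Pde10a and Meis2 included. These clusters were made from the same genes, so the differences between them are a description. Median depth was 302 UMIs in the cluster 0 nuclei, 276 in cluster 2, 381 in cluster 7 and 343 in cluster 8.

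The levels of the striatal list were also taken by depth within the class. In 4 bins of ExNeuron2 nuclei by UMIs (235 to 270, 271 to 296, 297 to 340 and 341 to 871), the list without Pde10a and Meis2 gave 1043, 851, 668 and 927 CPM, and the intervals of the lowest and the highest bin overlapped (825 to 1302 and 756 to 1125). All 13 genes gave 1966, 1877, 1692 and 2209 CPM. The excitatory list gave 4427, 4066, 4547 and 4672 CPM in the same order. With nuclei of at most 300 UMIs on both sides, the ratio to the other ExNeuron classes was 5.17 for Dach1, 4.47 for Ppp1r1b, 3.31 for Penk, 2.69 for Pde1b and 2.22 for Kctd8. Of the 12 higher genes, 9 were again past 2-fold under this limit and the rest were not.

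Several leading genes were also measured in plates of FFPE nuclei that carry no such classes. Of 98 nuclei in plate batch 1 and 134 in batch 2, Ppp1r1b had a count in 6.12% (2.28 to 12.9) and 28.4% (20.9 to 36.8), Dach1 in 24.5% and 15.7%, Penk in 11.2% and 17.2%, and Kctd8 in 43.9% and 48.5%. The plates were made with SMART-Seq2 and hold read counts without UMIs, so their shares are not compared with those of the droplets.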

How the data were processed

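The droplet table holds UMI counts of 19905 genes in 7031 nuclei as deposited by the authors, on a reference that the gene table names mm10_premrna. No source used here names the counting software, and mm10 and hg19 stand in the submitters' processing notes. The authors also deposited the mitochondrial fraction, the cluster and the class name of each nucleus, with no source here for how they named the classes. Nuclei were removed before deposit, since the gene table counts up to 23828 nuclei for 1 gene. The plate tables hold read counts as deposited by the authors, from 98 and 134 nuclei.

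UMIs were summed per class and divided by the class total (CPM). Ratios carry exact conditional binomial 95% intervals, CPM exact Poisson and shares exact Clopper-Pearson intervals, all for counting error only. A ratio of at least 2 was described among genes with at least 100 CPM on either side, and a ratio was computed with counts under 3 raised to 3. Shares were also taken after thinning each nucleus to 200 UMIs. With 1 library no test was made. Nuclei were clustered again with scanpy 1.11.5 (2000 variable genes, 30 components, 15 neighbours, Leiden resolution 1). Scrublet marked 4 of the 7031 nuclei (0.0569%), and no doublets were removed. So small a number may mean that the call did not work, which was not tested. An alternative left out the 351 nuclei with most UMIs, 4 of them in ExNeuron2. Gene positions are from GENCODE M21 (GRCm38). Named genes were the 15 highest and 10 lowest ratios to the other ExNeuron classes, the 10 highest and 5 lowest to the non-neuronal classes, the 5 at each end against ExNeuron1 and ExNeuron3, the 10 genes with most UMIs and the members of the gene lists. The class, the lists and the comparisons were chosen with earlier results of these data known. The scripts were tested on simulated data. Some named genes are not reported here.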

Additional observations from a re-analysis of the deposited data

How the results depend on the processing

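Results rest on 1 library of shallow nuclei, so intervals hold counting error alone and differences between animals were not measured. No paired analysis was possible because there is 1 droplet sample. The 12 genes at least 2-fold higher than in the other ExNeuron classes became 3 with a minimum of 300 CPM, 446 with no minimum, 20 after thinning, 78 with nuclei of the main own cluster alone, 29 without ExNeuron3 and ExNeuron4, 19 against the 2 most alike classes and 49 with nuclei of at most 300 UMIs. The 19 lower genes became 2, 329, 31, 165 and 49 under the first 5 of these and 50 under the last. Against non-neuronal classes the 60 higher genes became 15, 604, 103 and 187 under the first 4, and 180 with at most 300 UMIs. The 167 lower genes became 33 with 300 CPM, 1116 with no minimum, 272 in the own cluster and 269 with at most 300 UMIs. The limit of 300 UMIs and the addition of fibroblasts were chosen after seeing the data. Of the 12 higher genes, 10 were shared after thinning, 9 with at most 300 UMIs and 6 in the own cluster; of the 19 lower genes, 16, 8 and 16. With classes weighted equally, all 12 higher and 14 of the 19 lower genes were shared, and against non-neuronal classes 37 of 60 and 107 of 167. Without the 351 nuclei with most UMIs, 11 of the 12, 17 of the 19, 51 of the 60 and 162 of the 167 were shared. The largest share of ExNeuron2 in 1 cluster was 65.8% at resolution 0.5, 5.92% at resolution 2 and 60.3% with 4000 variable genes. Tshz2 reversed with at most 300 UMIs (1.15). The cause of these differences was not tested, other than that smaller groups of nuclei hold fewer UMIs per gene.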
